A study of Mus musculus with 3 samples.

Results

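The genes described here are 9 genes of antigen presentation on major histocompatibility complex (MHC) class II, chosen by name from the 32285 genes of the count tables and matched by Ensembl ID. They are *H2-Aa*, *H2-Ab1* and *H2-Eb1* (chains of the class II molecule), *Cd74* (the invariant chain), *H2-DMa* and *H2-DMb1* (the peptide-loading factor DM), *Ciita* (the class II transactivator), and *Cd80* and *Cd86* (the B7 costimulatory ligands). All 9 were detected in every library. The study dissociated healing wounds of the dorsal skin of male C57BL/6J mice aged 7 to 12 weeks on Days 3, 7 and 14 after injury and sequenced single cells without sorting for a cell type. Its methods give full-thickness punch wounds, whereas the series' design text speaks of incisions, and all mice were wild type with no treatment other than the wound. Each day had 1 library, made from wound tissue pooled from 4 samples, so no difference between days or cell classes has a replicate check and no test is given. All intervals are 95% intervals for counting error only, exact Poisson for levels and exact conditional binomial for ratios.

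MHC class II molecules are pairs of an alpha and a beta chain that display peptides from ingested protein to CD4+ T cells. The invariant chain guides them to the endosome and blocks the groove, cathepsins cut it down, and DM exchanges the remaining fragment for peptide. CIITA switches the class II genes on by joining the factors bound at their promoters. Dendritic cells carry class II constantly, macrophages vary with their state, and a T cell also needs CD80 or CD86 on the presenting cell. C57BL/6 mice make *H2-Eb1* mRNA, but their alpha chain gene of the same molecule is defective, so its protein does not reach the surface as a pair.

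The promoter stretches of an alpha and a beta chain gene are shown because the shared elements of class II promoters can be read in them. The sequences are from RefSeq (GRCm38.p6), 5′ to 3′ on the gene's strand. Capitals mark GNAAC, letters of the X box where RFX binds, and TGATTGG, the Y box, which holds the reverse complement of CCAAT and is bound by NF-Y. Both stretches lie upstream of the transcription start, at chr17:34287863-34287908 on the minus strand for *H2-Aa* (gene at chr17:34282744-34287823) and at chr17:34305772-34305816 on the plus strand for *H2-Eb1* (gene at chr17:34305867-34316674).
H2-Aa: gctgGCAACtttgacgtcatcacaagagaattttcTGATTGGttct
H2-Eb1: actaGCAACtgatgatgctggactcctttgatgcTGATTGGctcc
In *H2-Aa* GNAAC began 81 bases before the start and TGATTGG 50 bases before it, with 26 bases between them. In *H2-Eb1* the spacing was 25 bases. Among 32851 promoters of 300 bases, TGATTGG on either strand was found in 7.82%, and GNAAC followed after 20 to 30 bases by TGATTGG in 0.323%. Of the 5 members with a promoter in the table, 3 held the pair (*H2-Aa*, *H2-Eb1* and *H2-DMb1*) and *H2-DMa* and *Cd80* did not. Of 11 further genes of class II loading and proteolysis with an entry, 3 held it (*H2-Eb2*, *H2-Oa* and *H2-Ob*). The letters and the spacing were chosen after these sequences had been read, and a match is a description, not a bound site.

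Cells were classed from marker genes after clustering that used none of the members. Classes are macrophage-like, dendritic cell-like and so on, and are called macrophages and dendritic cells here. After filters 37460 of 44693 barcodes remained, 4360, 19590 and 13510 on Days 3, 7 and 14, with 43 barcodes shared by Days 3 and 7, 19 by Days 3 and 14 and 111 by Days 7 and 14. Macrophages numbered 2696, 9095 and 2595 cells with median depths of 4029.5, 2497 and 3314 unique molecular identifiers (UMIs, each 1 captured mRNA molecule). Dendritic cells numbered 234, 1096 and 530, with median depths of 7249, 3031.5 and 4560. The 12 macrophage markers summed to 12281, 16652 and 24102 CPM (a gene's UMIs relative to those of all genes in the cells of that class and library, on the usual CPM scale) in macrophages and to 2305, 1987 and 3066 CPM in dendritic cells. The 12 markers of type 2 conventional dendritic cells (cDC2) summed to 2838, 2203 and 2915 CPM in dendritic cells against 240.3, 248 and 753 CPM in macrophages. These lists also named the clusters, so the sums describe the classes and do not test their names. The 6 monocyte genes, which were not used for naming, summed to 2545, 898 and 490 CPM in macrophages on Days 3, 7 and 14. In dendritic cells they summed to 2244, 1028 and 352 CPM. The 8 fibroblast markers summed to 432, 3879 and 5662 CPM within macrophages and to 392, 3313 and 4846 CPM within dendritic cells, RNA of another cell type that also differed between libraries and whose part in the results was not tested.

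In dendritic cells the class II chains and the invariant chain stayed at a high level on all days, while macrophages moved from a low level on Days 3 and 7 to a high one on Day 14. For *H2-Aa*, the I-A alpha chain, dendritic cells had 10432, 9514 and 16018 CPM on Days 3, 7 and 14, and macrophages had 1286, 1819 and 7452 CPM. The beta chain gene *H2-Ab1* stood at 7266, 7061 and 10736 CPM in dendritic cells and at 783, 1157 and 4397 CPM in macrophages. Levels of *H2-Eb1* were 6851, 7197 and 12437 CPM in dendritic cells and 736, 1188 and 5563 CPM in macrophages. All 3 chains had the same order, with dendritic cells above macrophages on every day and both classes highest on Day 14. The invariant chain *Cd74* had 15885, 12278 and 22538 CPM in dendritic cells and 2322, 2330 and 9517 CPM in macrophages. The sum of these 4 genes, called the class II sum here, was 40433, 36050 and 61729 CPM in dendritic cells and 5127, 6495 and 26928 CPM in macrophages. Libraries count the 3′ ends of transcripts, so a level is compared between classes and days and not between genes. Over whole libraries the class II sum was 3678, 3491 and 5808 CPM, and in these sums a smaller number of class II cells and less RNA per cell cannot be told apart.

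The genes that load peptide and the transactivator were lower in UMIs and less uniform. *H2-DMa*, a chain of DM, had 435, 478 and 786 CPM in dendritic cells and 99.8, 119 and 354 CPM in macrophages. Its partner *H2-DMb1* had 626, 427 and 772 CPM in dendritic cells and 120.3, 112 and 345 CPM in macrophages. In both, macrophages on Day 14 were still below dendritic cells on any day. The neighbouring gene *H2-DMb2* is nearly identical to *H2-DMb1*, and how well the counting told their reads apart was not tested. *Ciita* had 112 (183 UMIs), 184 (621 UMIs) and 54.1 CPM (130 UMIs) in dendritic cells, so that Day 14 was the lowest, and 10.4, 19.99 and 27.8 CPM in macrophages, where Day 14 was the highest.

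The costimulatory ligands did not share that order. *Cd86* had 333, 216 and 211 CPM in dendritic cells and 114, 97.9 and 159 CPM in macrophages. *Cd80* had 197, 77.5 and 67.8 CPM in dendritic cells and 54.8, 22.3 and 30.9 CPM in macrophages, highest on Day 3 in both. Its highest level was in neither class: neutrophils had 513 CPM (473 to 555, 601 UMIs) on Day 3 and 256 CPM (229 to 285, 331 UMIs) on Day 7, and only 21 neutrophils were found on Day 14. Fibroblasts held 4.21, 4.04 and 2.11 CPM of *Cd80*.

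**Figure D1:**
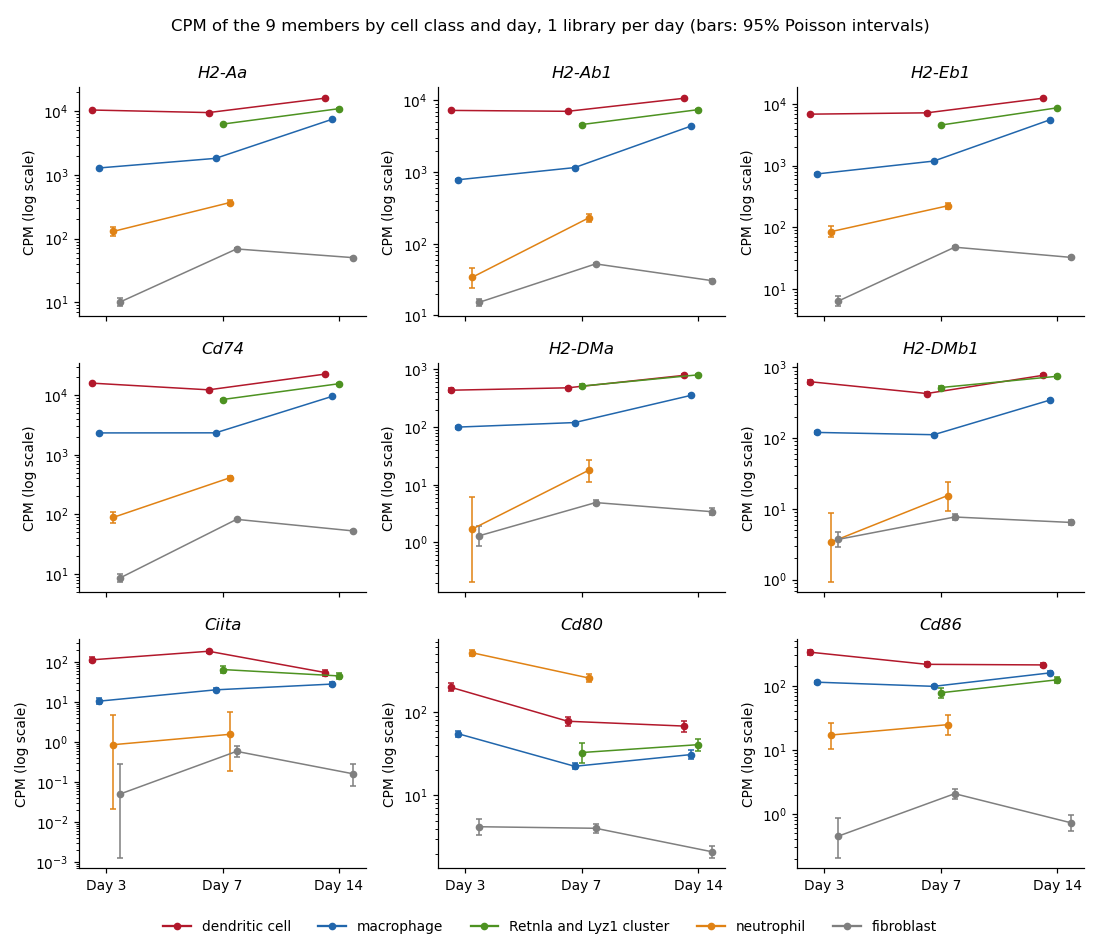
Each panel plots the CPM of 1 gene (log scale) against the day for dendritic cells, macrophages, an unnamed *Retnla* and *Lyz1* cluster, neutrophils and fibroblasts, with 95% Poisson intervals as bars and classes of at least 50 cells. The class II chains and *Cd74* are highest in dendritic cells and climb in macrophages on Day 14 (*H2-Aa* from 1819 to 7452 CPM), *Ciita* in dendritic cells ends at its lowest value of 54.1 CPM, and *Cd80* is highest in neutrophils.

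Fibroblasts and neutrophils are not professional presenting cells and were used for comparison. Where their class II UMIs came from was not tested. The class II sum was 40.3, 251 and 166 CPM in fibroblasts, and 338 and 1229 CPM in neutrophils on Days 3 and 7. The macrophage level was thus 5127 against 338 CPM on Day 3 and 6495 against 1229 CPM on Day 7. After each cell had been thinned to 500 UMIs, an *H2-Aa* UMI was found in 19.2%, 30.3% and 68.3% of macrophages and in 94.4%, 90.7% and 96.2% of dendritic cells. In neutrophils it was found in 4.96% and 10.4% on Days 3 and 7. The unthinned shares were 32.1%, 47.0% and 83.8% of macrophages, 98.7%, 95.7% and 98.3% of dendritic cells and 9.23% and 13.9% of neutrophils, whose median depths were 1230 and 710 UMIs. On Days 3 and 7 the macrophage share was therefore above that of neutrophils in the same library.

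Between the classes, a gene was called when its CPM differed at least 2-fold, with at least 50 CPM in 1 of the groups compared and at least 10 UMIs in each. Dendritic cells were higher in 9 of 9 members on Day 3, where 10.3% of 3474 genes tested were called in that direction. They were higher in 9 of 9 on Day 7 (10.8% of 3213 genes) and in 7 of 9 on Day 14 (9.76% of 3044 genes). The calls of *Ciita* on Days 3 and 7 and of *Cd80* on Day 7 were fixed by the limits. These genes passed 50 CPM in dendritic cells alone, from macrophage levels so low that passing made a 2-fold difference certain. The median log2 ratio of the members was 2.77, 2.39 and 1.15, beside −0.033, −0.015 and −0.11 over all genes tested. For the class II sum the log2 ratio was 2.98 (2.96 to 3.00), 2.47 (2.46 to 2.48) and 1.20 (1.19 to 1.21), or 7.89-fold, 5.55-fold and 2.29-fold. The 2 members not called on Day 14 were *Ciita*, at 0.96 (0.64 to 1.27), and *Cd86*, at 0.41 (0.26 to 0.56). The Day 14 count lay close to the threshold: it was 0 when each library was clustered alone and 0 when a class was set per cell, and 3 when an unnamed *Retnla* and *Lyz1* cluster described later was counted with the macrophages, with class II sums of 0.89, 0.52 and 0.99 (log2). On Day 3 the same sum was 3.95 with each library clustered alone and 2.69 with a class per cell.

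By role, the ratio to macrophages was widest for the transactivator on Days 3 and 7 and narrowest for *Cd86* on all days. *Ciita* stood at 3.43 (3.09 to 3.77) on Day 3 and 3.20 (3.03 to 3.37) on Day 7. *H2-Ab1* stood at 3.21, 2.61 and 1.29, and *H2-Eb1* at 3.22, 2.60 and 1.16. *H2-DMa* stood at 2.12, 2.001 and 1.15. The ratio for *Cd80* was 1.85 (1.65 to 2.04), 1.79 (1.58 to 2.01) and 1.13 (0.85 to 1.42), and that for *Cd86* was 1.55, 1.14 and 0.41. For all 9 genes the Day 14 ratio was below those of Days 3 and 7. Macrophages with a UMI of a dendritic cell marker were 2.97%, 2.66% and 6.59% of the class, and dendritic cells with a UMI of *C1qa*, *C1qb* or *Adgre1* were 26.9%, 35.0% and 41.3%. Without all such cells the class II sum ratios were 3.12, 2.55 and 1.14.

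**Figure D2:**
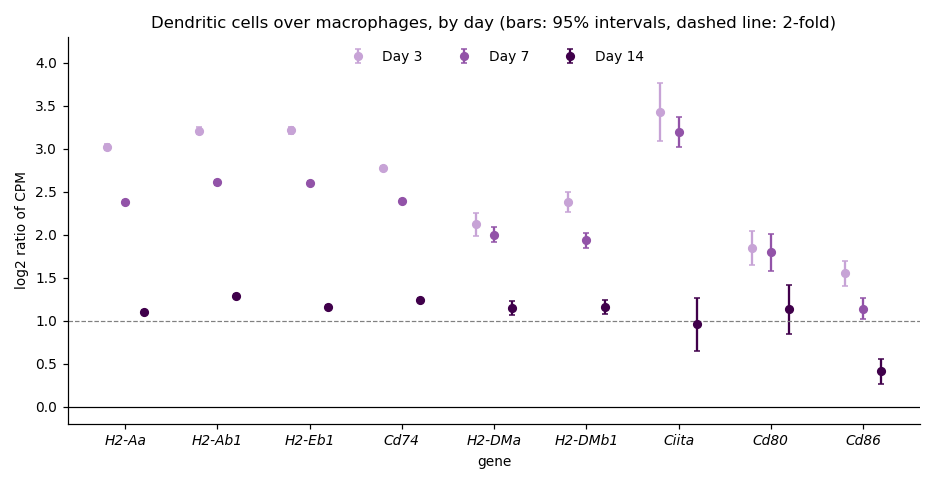
Points give the log2 ratio of CPM in dendritic cells to CPM in macrophages for each gene and day, bars the 95% intervals and the dashed line a 2-fold difference. All points lie above 0, the Day 14 points lie lowest for every gene, and *Ciita* (0.96) and *Cd86* (0.41) on Day 14 are below the line.

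Other genes of the same pathway lay on both sides of 0. Of 15 genes of loading and proteolysis, the limits were passed by 12, 14 and 13 on Days 3, 7 and 14, of which dendritic cells were higher in 6, 7 and 4 (10.3%, 10.8% and 9.76% of all genes tested were called higher, to be read beside each list here) and lower in 4 on each day, where 11.7%, 15.4% and 16.9% of all genes tested were called lower. *H2-DMb2* (6.45 on Day 3) and *H2-Ob* (5.39), a chain of the DM inhibitor DO, were among the highest log2 ratios, and *H2-Oa*, its partner, was 5.77 on Day 7 and 5.66 on Day 14. *H2-Eb2*, a further beta chain gene, passed the limits on Day 7 alone, at 6.65 (5.84 to 7.59) from 13 UMIs in macrophages. The cathepsins *Ctsb* (−3.26, −3.52 and −3.46) and *Ctsl* (−4.82, −3.95 and −3.42) and the endosomal protease *Lgmn* (−2.76, −2.95 and −3.54) were higher in macrophages, as was *Ap1b1*, an adaptor subunit of vesicle coats, at −1.46, −1.14 and −1.81. *Tmem176a* and *Tmem176b* were higher in dendritic cells on Days 3 and 7 but at 0.026 and −0.30 on Day 14. *Ctss*, the cathepsin that trims the invariant chain in these cells, was at −0.65, −0.96 and −0.56 and was not called. Of 12 genes listed under class II transcription, few passed the limits (5, 6 and 4). Dendritic cells were higher in 1 of them on each day, *Irf4*, at 3.22, 2.28 and 1.08. They were lower on Day 7 in *Il10*, a cytokine gene kept on that list, at −3.66. The interferon gamma pathway had 6 of 7 genes tested and 1 higher on each day, *Jak2*, at 2.78, 3.12 and 2.47, a share near that over all genes. Of 13 genes of class I presentation 11 passed and 5, 6 and 3 were higher in dendritic cells with none lower. Of 8 other co-signalling ligands, 3, 2 and 1 passed, with *Cd274* higher at 1.63 and 1.85 on Days 3 and 7, and of 8 receptors of T cells none passed.

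Within macrophages the members were compared between successive days. From Day 3 to Day 7, of 8 members tested none was called higher (1.93% of 3260 genes were) and 1 was called lower (7.91% of genes were), *Cd80*, with a log2 ratio of −1.29 (−1.46 to −1.13). *Cd80* passed 50 CPM on Day 3 alone, and its low Day 7 level made that call certain once it passed. With each library clustered alone, 5 members were higher and 0 lower, and the class II sum was at 1.39. In the joint clustering it moved by 0.34 (0.33 to 0.35), with *H2-Eb1* at 0.69, *H2-Ab1* at 0.56, *H2-Aa* at 0.50 and *Cd74* at 0.01, beside a median of −0.26 over all genes tested. *Ciita* was at 0.94 (0.65 to 1.23), below the limit of 50 CPM. From Day 7 to Day 14, 6 of 7 members tested were called higher, where 3.37% of 3025 genes were. These were *H2-Eb1* (2.23, or 4.68-fold), *H2-Aa* (2.03), *Cd74* (2.03), *H2-Ab1* (1.93), *H2-DMb1* (1.63) and *H2-DMa* (1.57). The exception was *Cd86*, at 0.70 (0.60 to 0.79), and the class II sum was at 2.05 (2.04 to 2.06), or 4.15-fold. *Ciita* at 0.48 (0.25 to 0.70) and *Cd80* at 0.47 (0.26 to 0.68) were below 50 CPM on both days.

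Of the other genes of loading and proteolysis, 10 were tested in macrophages between Days 7 and 14. *Tmem176b* (2.28) and *Tmem176a* (1.89), endosomal membrane proteins, were higher on Day 14 and *Ctsl* was lower (−1.65), where 2.64% of all genes were called lower. No gene of class II transcription or of the interferon gamma pathway was called, of 4 and 5 tested, where 3.37% of all genes tested were called higher. With so few genes, the absence of a call lies near these shares. The 4 were *Il10*, *Spi1*, *Irf8* and *Creb1*, and no gene of RFX or NF-Y passed the limits.

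The days differed in which macrophage clusters they held, and cluster levels were therefore set side by side. A cluster led by *Chil3* and *Arg1* held 74.5% of Day 3 macrophages, 7.12% on Day 7 and 0.231% on Day 14. On Day 7 most macrophages were in clusters led by *Atp6v0d2* and *Rnf128* (33.3%), *Ly6c2* and *Cx3cr1* (20.4%) and *Fcna* and *Cd163* (17.3%). On Day 14 a cluster led by *Slamf7* and *Ccl8* held 54.0% and the *Fcna* and *Cd163* cluster 19.7%. Between Days 7 and 14 the class II sum was higher within each cluster that could be compared. It went from 8303 to 27810 CPM in the *Slamf7* and *Ccl8* cluster, from 3082 to 16855 CPM in the *Fcna* and *Cd163* cluster and from 17004 to 42826 CPM in the *Ly6c2* and *Cx3cr1* cluster, log2 ratios of 1.74, 2.45 and 1.33. The low-depth *Arg1* and *Mtss1* cluster (2.45) and the cycling cluster led by *Hist1h1b* (1.33) lay in the same range. Between Days 3 and 7 the clusters differed among themselves, with 2.20 in the *Atp6v0d2* and *Rnf128* cluster (597 to 2738 CPM), 1.79 in the *Fcna* and *Cd163* cluster (889 to 3082 CPM), 1.23 in the *Arg1* and *Mtss1* cluster (1607 to 3768 CPM), −0.14 in the *Chil3* and *Arg1* cluster (5637 to 5116 CPM) and 0.09 in the *Ly6c2* and *Cx3cr1* cluster (16000 to 17004 CPM). In the same 2 libraries the class II sum was also higher on Day 7 than on Day 3 in neutrophils and fibroblasts, with the levels given above. Whether the rises within clusters were apart from that background was not tested. Of the macrophage clusters with at least 50 cells, the *Ly6c2* and *Cx3cr1* cluster had the highest class II sum on each day, although it was 4.71%, 20.4% and 10.4% of the class.

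**Figure D3:**
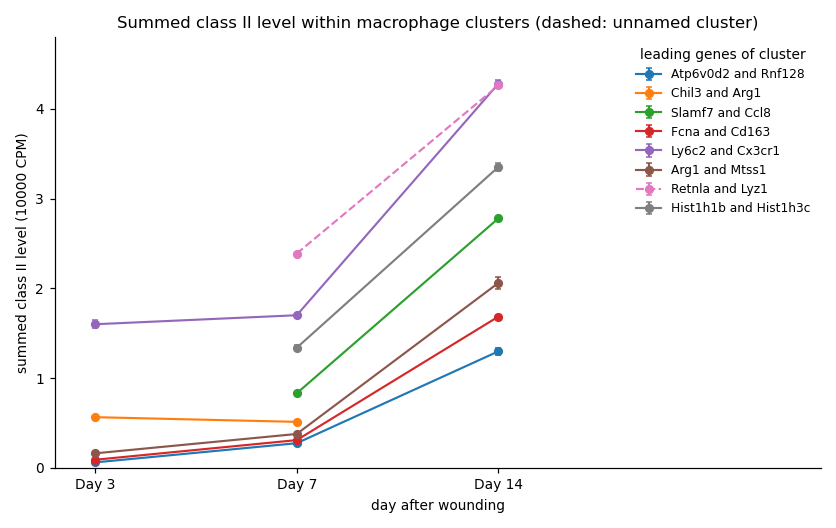
The class II sum (in units of 10000 CPM) is plotted by day for each macrophage cluster, named by its leading genes, with 95% Poisson intervals and at least 50 cells per point. All lines with a Day 7 and a Day 14 point go up between them, and the *Ly6c2* and *Cx3cr1* cluster lies highest among the macrophage clusters, at 42826 CPM on Day 14.

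*Ciita* in the same clusters had few UMIs. In the *Ly6c2* and *Cx3cr1* cluster it was 26.8 CPM (9 UMIs), 61.1 CPM (278 UMIs) and 65.6 CPM (61 UMIs), with 0.10 (−0.32 to 0.51) for Day 14 over Day 7 on the log2 scale, whereas the class II sum of these cells was 1.33 higher. In the *Fcna* and *Cd163* cluster it went from 12.2 to 34.3 CPM, with a log2 ratio of 1.49 (0.94 to 2.03), and in the *Slamf7* and *Ccl8* cluster from 9.37 to 18.5 CPM, at 0.98 (0.34 to 1.67). The cycling cluster was at −0.53 (−1.29 to 0.22) and the *Arg1* and *Mtss1* cluster at −0.80 (−3.95 to 1.26, from 18 and 2 UMIs), intervals that included 0.

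An unnamed cluster led by *Retnla* and *Lyz1* had a class II sum between those of macrophages and dendritic cells on Days 7 and 14. It held 13, 406 and 641 cells on Days 3, 7 and 14, detected all 12 macrophage markers on each day, and had *Tnip3*, a marker of the dendritic cell list, but no macrophage marker among its leading genes, so it got neither name. Its class II sum was 23881 CPM on Day 7 and 42622 CPM on Day 14, a log2 ratio of 0.84 (0.82 to 0.85), whereas its *Ciita* went from 64.2 to 44.5 CPM, at −0.53 (−0.89 to −0.16). On Day 7, 7 of 8 members tested were at least 2-fold above macrophages, where 4.54% of 3081 genes were, with *H2-DMb1* at 2.21, *H2-DMa* at 2.10 and *H2-Ab1* at 1.99. *Ciita*, among the 7, passed the limit of 50 CPM in this cluster alone, and its low macrophage level made the call certain. On Day 14, 2 of 7 were (5.24% of 2956 genes), *H2-DMa* at 1.18 (1.11 to 1.25) and *H2-DMb1* at 1.11 (1.04 to 1.19). The chains and *Cd74* on Day 14 were at 0.56 to 0.76, short of 2-fold. *Cd86* was below its macrophage level on both days, at −0.33 (−0.59 to −0.09) and −0.36 (−0.52 to −0.20). This cluster supplied 12.1% and 25.1% of all class II sum UMIs on Days 7 and 14. Macrophages supplied 47.0%, 46.4% and 43.7% on Days 3, 7 and 14, and dendritic cells 50.4%, 34.7% and 26.3%. Of all *Ciita* UMIs dendritic cells held 59.0%, 48.2% and 23.1%.

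Within dendritic cells the class II genes and *Ciita* went opposite ways between Days 7 and 14. From Day 3 to Day 7 none of 9 members was called higher (1.76% of 3186 genes were) and 1 was called lower (12.0% of genes were), *Cd80*, at −1.35 (−1.59 to −1.11). The class II sum was at −0.17 (−0.18 to −0.15) beside a median of −0.31 over all genes, and its sign depended on the scaling, with 0.081 when the 50 most abundant genes were left out of the total and 0.14 with median-of-ratios scaling. From Day 7 to Day 14 none of 9 was called higher (3.04% of 2864 genes were) and 1 was called lower (6.70% were), *Ciita*, at −1.76 (−2.05 to −1.49), or 0.295-fold. In the same cells *Cd74* was at 0.88, *H2-DMb1* at 0.86, *H2-Eb1* at 0.79, *H2-Aa* at 0.75, *H2-DMa* at 0.72 and *H2-Ab1* at 0.60, all higher on Day 14 but less than 2-fold. *Cd86* (−0.03, −0.20 to 0.13) and *Cd80* (−0.19, −0.48 to 0.10) had intervals that included 0.

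The lower *Ciita* level on Day 14 was found in each of the dendritic cell types given here, in some from few UMIs. In cDC2 it was 101, 207 and 58.5 CPM on Days 3, 7 and 14 (128, 449 and 83 UMIs). In type 1 conventional dendritic cells (cDC1), which cross-present to CD8+ T cells, it was 207 CPM on Day 7 and 37.5 CPM on Day 14 (70 and 18 UMIs). In mature dendritic cells, the *Ccr7*-bearing migrating state, it was 115 and 28.1 CPM (100 and 9 UMIs). The class II sum of mature cells was higher on Day 14 (24640 and 31325 CPM on Days 7 and 14), but *H2-Ab1* was not (3893 and 3669 CPM). Day 14 over Day 7 in cDC2 gave log2 ratios of −1.82 (−2.18 to −1.48) for *Ciita* and 0.71 (0.70 to 0.73) for the class II sum. Most cDC2 of Day 7 (578 of 676 cells) and of Day 14 (245 of 311 cells) were in different subclusters, so these ratios also compare subclusters.

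The types made up different shares of the class by day. The cDC2 were 164, 676 and 311 cells (70.1%, 61.7% and 58.7%), mature dendritic cells 57, 320 and 85 cells (24.4%, 29.2% and 16.0%), and cDC1 13, 99 and 93 cells (5.56%, 9.03% and 17.5%). A Langerhans-like group, the dendritic cells of the epidermis, had 41 cells on Day 14. The class II sum was 42688, 40671 and 66670 CPM in cDC2 and 35772 and 60194 CPM in cDC1 on Days 7 and 14. The ratio of cDC1 to cDC2 for that sum was −0.19 (−0.21 to −0.16) and −0.15 (−0.17 to −0.13) on the log2 scale, and the intervals for *H2-DMa* and *H2-DMb1* included 0 on both days. *Cd80* was lower in cDC1 on Day 14, at −1.36 (−2.25 to −0.58) from 15 UMIs, the 1 of 9 members called lower (11.8% of 2554 genes were). On Day 7 it was also lower, at 11.8 CPM from 4 UMIs against 71.9 CPM in cDC2. The Langerhans-like cells had the highest class II sum of any group, 80397 CPM, and 751 CPM of *Cd86* (139 UMIs), but no *Cd80* UMI, with an upper bound of 19.9 CPM. Their *Ciita* was at 108 CPM (20 UMIs) on Day 14, above the other types of that day. With 1 such cell on Day 7, this level could not be compared between days.

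Mature dendritic cells held less class II mRNA than cDC2 on every day, and of the 9 members the 2 chains of DM had the lowest ratios to cDC2. Their class II sum was 32444, 24640 and 31325 CPM, with log2 ratios to cDC2 of −0.40 (−0.43 to −0.36), −0.72 (−0.74 to −0.70) and −1.09 (−1.12 to −1.06). *H2-DMb1* had 179.6, 67.6 and 96.9 CPM (47, 59 and 31 UMIs) against 712, 556 and 842 CPM in cDC2, log2 ratios of −1.99, −3.04 and −3.12. *H2-DMa* had 187, 155 and 156 CPM against 476, 591 and 818 CPM, at −1.35, −1.93 and −2.39. *H2-DMb2*, which is nearly identical to *H2-DMb1*, was not lower in this way, at 0.71 (0.28 to 1.12), −0.21 (−0.56 to 0.13) and −0.24 (−0.89 to 0.37). How well the reads of these genes were told apart was not tested. Called lower were 2 of 9 members on Day 3 (10.9% of 2917 genes were), 3 of 9 on Day 7 (16.0% of 3010 genes) and 5 of 8 on Day 14 (11.4% of 2543 genes). DM made up both calls on Day 3, *H2-Ab1* joined on Day 7 (−1.10), and *H2-Ab1* (−1.69), *Cd74* (−1.09) and *H2-Eb1* (−1.02) joined on Day 14.

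The B7 ligands were not lower in mature cells in the same way. *Cd80* was at −0.09 (−0.55 to 0.35), 0.70 (0.33 to 1.07) and 0.40 (−0.19 to 0.97), and *Cd86* at 0.19 (−0.14 to 0.50), 0.43 (0.20 to 0.66) and −0.80 (−1.37 to −0.27). Of the other co-signalling ligands, *Cd274*, which encodes PD-L1, was higher in mature cells on each day, at 1.98, 2.64 and 2.28, as was *Cd40*, at 1.43, 2.02 and 2.07. *H2-Eb2* was higher at 4.62 and 4.05 on Days 3 and 7, and *Nlrc5*, the transactivator of class I genes, at 1.65, 2.27 and 3.103 on Days 3, 7 and 14. Of 13 class I genes 12 passed the limits, with 4, 3 and 6 higher and none lower, where 14.8%, 11.8% and 15.9% of all genes tested were called higher. The small clusters limit these values, since mature cells on Day 14 were 85 cells.

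**Figure D4:**
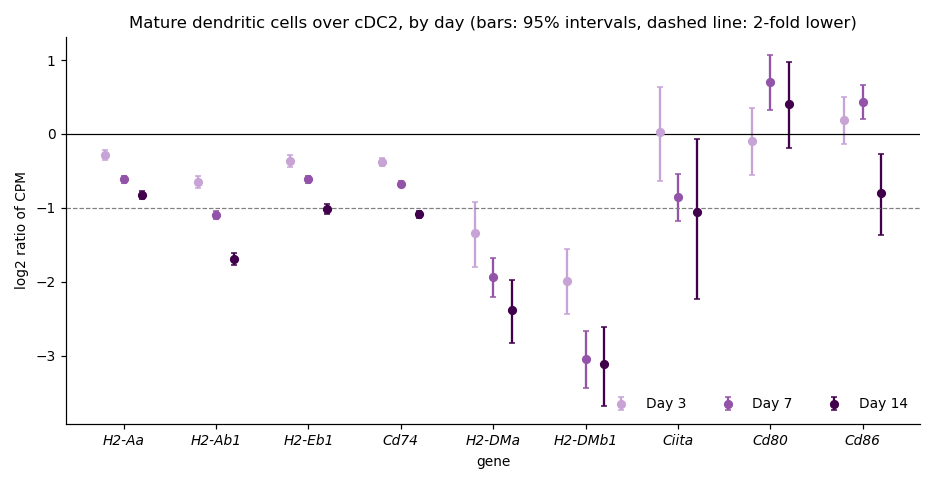
Points give the log2 ratio of CPM in mature dendritic cells to CPM in cDC2 for each gene and day, with 95% intervals as bars and a dashed line at 2-fold lower. The class II chains, *Cd74* and DM lie below 0 on all days, with *H2-DMb1* at −3.12 on Day 14, while *Cd80* and *Cd86* lie on both sides of 0.

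Cell by cell, macrophages ranged widely in class II mRNA, and on Day 14 their 90th percentile came close to the median of dendritic cells. With each cell thinned to 1000 UMIs, the median class II sum in macrophages was 0, 1 and 18 UMIs on Days 3, 7 and 14, and the 90th percentile was 17, 24 and 62 UMIs. No class II UMI was seen in 62.2% of macrophages on Day 3, 46.3% on Day 7 and 13.8% on Day 14. For dendritic cells the medians were 41, 37 and 63 UMIs, and 0.450%, 1.36% and 0.394% had none. In neutrophils the median was 0 and 80.6% and 57.5% had none, so on Day 7 a macrophage with 1 UMI was not set apart from neutrophils. Cells with fewer than 1000 UMIs were left out, 224, 831 and 176 macrophages and 12, 67 and 22 dendritic cells, and 255 of 867 and 1413 of 1641 neutrophils on Days 3 and 7, so the Day 7 value for neutrophils rests on 228 cells. At 500 UMIs, with no cell left out, 86.9% and 71.2% of neutrophils and 70.0% and 55.1% of macrophages had none on these days.

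**Figure D5:**
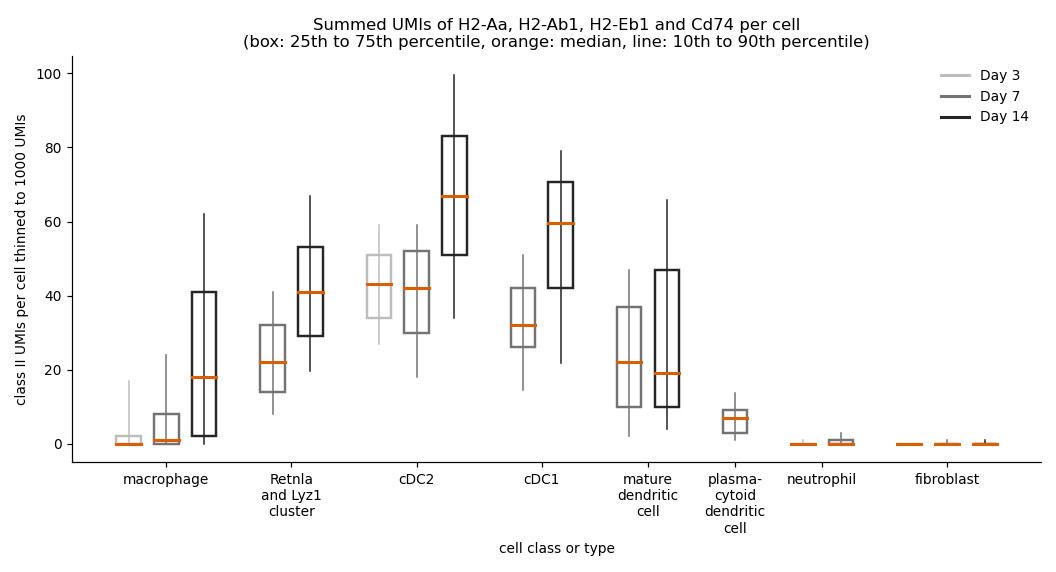
Boxes show the 25th to 75th percentile of class II sum UMIs per cell after thinning to 1000 UMIs, with the median in orange and lines from the 10th to the 90th percentile, by class and day. The macrophage median goes from 0 on Day 3 to 18 on Day 14, mature dendritic cells (22 and 19 on Days 7 and 14) lie below cDC2 (42 and 67), and neutrophils and fibroblasts lie at 0.

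When the same thinned macrophages were grouped by their class II UMIs, DM and *Ciita* were higher with more class II on all days. *Cd80* on Days 7 and 14 and *Cd86* on Day 14 were not, and *Cd86* on Day 3 did not rise in the highest group. On Day 7, macrophages with 0 to 1, 2 to 9, 10 to 29 and 30 or more class II UMIs held 31.1, 101, 279 and 438 CPM of *H2-DMb1*. *Ciita* was at 1.19, 22.4, 51.3 and 109 CPM in these groups, from 6, 30, 66 and 64 UMIs. *Cd86* was at 87.7, 122, 118 and 177 CPM, and *Cd80* at 22.8, 29.9, 27.2 and 23.8 CPM. Each step up in class II mRNA thus came with more *H2-DMb1* and *Ciita*, *Cd86* was higher in the highest group (144 to 214 CPM) than in the lowest (79.8 to 96.3 CPM), and *Cd80* stayed within a narrow range. On Day 14 *Ciita* was at 3.81, 13.2, 31.9 and 43.9 CPM in the groups, from 2, 5, 20 and 39 UMIs, so the highest group held less of it than on Day 7. *Cd86* on Day 14 was at 162, 145, 160 and 168 CPM, with overlapping intervals. On Day 3 *H2-DMb1* was at 26.2, 145, 341 and 720 CPM and *Ciita* at 0.558, 13.2, 33.1 and 66.7 CPM, from 1, 4, 10 and 5 UMIs. *Cd86* on that day was at 63.7, 138, 192 and 120 CPM and *Cd80* at 55.3, 82.2, 92.7 and 93.3 CPM, the highest group holding 75 cells. These cells share a library, and all values come from the same thinned UMIs. The groups pool clusters that differed in both class II and *Ciita*. On Day 3, 80 macrophages carried a UMI of a dendritic cell marker, and whether the 75 cells of the highest group were among them was not tested.

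The make-up of the class II sum was compared between classes and days. In dendritic cells on Day 7, *Cd74* gave 34.1% of the summed UMIs, *H2-Aa* 26.4%, *H2-Ab1* 19.6% and *H2-Eb1* 19.97%. Macrophages on Day 14 had 35.3%, 27.7%, 16.3% and 20.7% in that order, whereas on Day 3 *Cd74* gave 45.3% and *H2-Eb1* 14.3%. The 105 plasmacytoid dendritic cells of Day 7 had 46.6% *Cd74* and 10.7% *H2-Eb1* at a class II sum of 6746 CPM. On Day 3, fibroblasts had 21.3% *Cd74* and 37.8% *H2-Ab1* of 804 UMIs, and neutrophils had 26.3% *Cd74*, 38.4% *H2-Aa* and 10.1% *H2-Ab1* of 396 UMIs, shares unlike those of Day 3 macrophages or dendritic cells (15.3% and 18.0% *H2-Ab1*). On Day 7, with more UMIs, the shares were close to those of the presenting cells. Fibroblasts then had 32.8% *Cd74* and 20.9% *H2-Ab1* of 15988 UMIs, and neutrophils 33.3% and 18.7% of 1590 UMIs. Macrophages of that day had 35.9% and 17.8%.

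*Cd80* in neutrophils was also seen cell by cell. After thinning to 500 UMIs, 21.9% of neutrophils on Day 3 and 12.1% on Day 7 held a *Cd80* UMI, against 6.41% and 3.83% of dendritic cells, 2.45% and 1.09% of macrophages and 0.244% and 0.268% of fibroblasts, a type with little B7 expression. Unthinned, the shares were 41.2% and 16.9% of neutrophils, 50.9% and 16.7% of dendritic cells, 17.1% and 5.44% of macrophages and 12.0% and 3.79% of fibroblasts, whose median depths were 44305.5 and 10305 UMIs. Neutrophils supplied 36.1% of all *Cd80* UMIs on Day 3 and 22.1% on Day 7. The same cells had 17.1 and 24.7 CPM of *Cd86* and 0.853 and 1.55 CPM of *Ciita*.

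Genes whose level ran most like the class II sum were found by Pearson's r of log CPM over 21 groups of class and day, among 6804 genes. The chains and *Cd74* filled the first places by construction. Of members outside the sum, *H2-DMa* and *H2-DMb1* ranked 5 and 6, *Ciita* 10 (r = 0.93), *Cd86* 39 (r = 0.89) and *Cd80* 980 (r = 0.53). Outside the members the closest were *Slamf7* (r = 0.97), *Mgl2* (0.94), *Clec10a* (0.94), *Tnip3* (0.93) and *Rassf4* (0.93), of which *Mgl2*, *Clec10a* and *Tnip3* were markers used to name cDC2. For *Cd86* the closest were *Clec4a3* (r = 0.95), *Aph1c*, *Ticam2*, *Ms4a6c* and *Gm6377* (0.94 each). The groups share libraries and differ in depth, so these values describe likeness only.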

How the data were processed

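Cells of dissociated wounds were profiled with Chromium 3′ v3.1 libraries. The authors deposited UMI counts for each gene and cell barcode as raw whole numbers. The submitters' processing notes name Cell Ranger 6.0.0 and mm10 (GRCm38). Of 32285 Ensembl IDs, 32158 could be paired with a symbol. Coordinates are from GENCODE vM21 and promoters from RefSeq, both on GRCm38. The libraries held 38133650, 120940799 and 112713257 UMIs on Days 3, 7 and 14.

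Filters required 500 UMIs, 200 genes and no more than 10% mitochondrial UMIs in a cell. Doublets were called against simulated doublets among 50 neighbours, limited to 0.5 times an expected 0.8% for each 1000 barcodes, which removed 92, 1978 and 962 cells, and others remain. The libraries were clustered together (Leiden, resolution 1, 2000 variable genes, 30 components, 15 neighbours) into 33 clusters without alignment and without the members, the other listed genes, mitochondrial or ribosomal genes. A cluster took the name of the marker list with at least 3 markers and the highest score, unless its 10 leading genes held more markers of another class, another class reached 0.75 times its score, or its UMIs were low with none of its own markers among those genes. Dendritic cells were clustered again at resolution 0.5, a value chosen after the clusters were seen, again without the members.

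UMIs were summed per class and library, with 1 library per day and hence no test. Each ratio across all genes used exact conditional binomial intervals. On simulated Poisson counts for dendritic cells over macrophages, with 200 genes changed by known folds, the 95% intervals held the true fold for 95.0%, 97.5% and 93.5% of changed genes on Days 3, 7 and 14. The intervals are built for such counts, which hold no variation between cells or libraries, so this checks the calculation only. Shares were taken after thinning to 500 or 1000 UMIs, with Clopper-Pearson intervals. Intervals cover counting error only. Genes named are the 9 members, at most the 2 highest and 2 lowest genes of each list, and the 5 genes most like the class II sum and *Cd86*. The members, lists and tests were chosen with earlier results of these data known. Values of *Ctss*, *Ctsb*, *Ctsl*, *Lgmn*, *Ap1b1*, *Tmem176a*, *Tmem176b* and *Cd40* were also given outside this rule, after they had been seen. Those of *H2-DMb2* in mature dendritic cells over cDC2 were given for its likeness to *H2-DMb1* and not by rank, also after they had been seen. Alternatives changed the scaling, the filters, doublet removal, the clustering and the class rule. Counting the *Retnla* and *Lyz1* cluster as macrophages and taking cDC2 for all dendritic cells were added after seeing the data. Python 3.11.15 with numpy 2.4.6, scipy 1.17.1, pandas 2.3.3, scikit-learn 1.9.0, leidenalg 0.10.2 and igraph 0.11.9 was used.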

Additional observations from a re-analysis of the deposited data

Results flagged for a closer look

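Between Days 3 and 7 *H2-Aa*, *H2-Ab1* and the class II sum had opposite signs in the 2 classes, with counting intervals beyond 0 in both, whereas *H2-Eb1* was above 0 in both (0.071 in dendritic cells and 0.69 in macrophages). Day 7 over Day 3 in dendritic cells gave log2 ratios of −0.13 for *H2-Aa*, −0.041 for *H2-Ab1* and −0.17 for the class II sum, against 0.50, 0.56 and 0.34 in macrophages. The signs in dendritic cells depended on the processing. The sign was kept in 12 of 14 alternatives for *H2-Aa* and in 10 of 14 for *H2-Ab1*, and the sum was at 0.081 without the 50 most abundant genes and at 0.14 with median-of-ratios scaling. Both values for dendritic cells and macrophages come from the same pair of libraries, and the difference between the classes was not tested.

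Between Days 7 and 14 *Ciita* was at −1.76 (log2 ratio) in dendritic cells and at 0.48 in macrophages. This difference was not tested either, and the macrophage level was below 50 CPM on both days.

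*Cd80* was at 513 CPM in neutrophils on Day 3 and at 256 CPM on Day 7, a class outside the comparisons of macrophages with dendritic cells. Fibroblasts of the same libraries held 4.21 and 4.04 CPM.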

How the results depend on the processing

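No paired analysis was possible because each day had 1 library. The values below are log2 ratios of the class II sum in the order dendritic cells over macrophages on Days 3, 7 and 14, macrophages on Day 7 over Day 3 and Day 14 over Day 7, and dendritic cells for the same pairs of days, reported as 2.98, 2.47, 1.20, 0.34, 2.05, −0.17 and 0.78. They were 2.98, 2.46, 1.16, 0.60, 1.95, 0.081 and 0.66 without the 50 most abundant genes and 3.01, 2.49, 1.30, 0.60, 2.04, 0.14 and 0.84 with median-of-ratios scaling. With the mean CPM of single cells they were 3.30, 2.44, 1.25, 0.66, 1.97, −0.19 and 0.77. A mitochondrial limit of 5% gave 3.04, 2.36, 1.13, 0.46, 1.998, −0.21 and 0.76, and one of 20% gave 2.88, 2.45, 1.18, 0.22, 2.05, −0.20 and 0.77. Keeping doublets gave 2.94, 2.36, 1.18, 0.33, 2.03, −0.26 and 0.85, and a minimum of 500 genes 2.98, 2.43, 1.16, 0.40, 2.02, −0.16 and 0.76. Resolution 0.5 gave 2.97, 2.47, 1.19, 0.32, 2.06, −0.18 and 0.79, and resolution 2 gave 2.96, 2.43, 1.18, 0.37, 2.02, −0.16 and 0.78. Clustering each library alone gave 3.95, 2.46, 0.89, 1.39, 2.24, −0.10 and 0.68, and a class per cell gave 2.69, 2.06, 0.52, 0.30, 1.96, −0.32 and 0.42. Without cells carrying a marker of the other class they were 3.12, 2.55, 1.14, 0.37, 2.10, −0.20 and 0.69. With the *Retnla* and *Lyz1* cluster counted as macrophages they were 2.95, 2.24, 0.99, 0.55, 2.02, −0.17 and 0.78, and with cDC2 for all dendritic cells 3.06, 2.65, 1.31, 0.34, 2.05, −0.070 and 0.71. The 2 values above 0 for dendritic cells on Day 7 over Day 3 were the only changes of sign for the sum, and their cause was not tested. Of the ratios of single members 573 stayed inside the reported counting interval and 390 left it. In macrophages on Day 7 over Day 3 the sign was kept in 8 of 14 alternatives for *H2-DMb1* and in 10 of 14 for *Cd74* and *Cd86*. In dendritic cells for the same days it was kept in 12 for *H2-Aa* and *H2-Eb1*, 10 for *H2-Ab1* and 13 for *H2-DMa*, and on Day 14 over Day 7 in 13 for *Cd80* and 12 for *Cd86*. *Ciita* in mature cells over cDC2 on Day 14 kept it in 2 of 3. *Ciita* in dendritic cells over macrophages on Day 14 ranged from 0.032 with a class per cell to 1.41 with the mean CPM of single cells.

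Of the counts of members called, 202 were within 1.5 times the reported ones and 8 were not. Dendritic cells over macrophages on Day 14 gave 0 members higher with each library clustered alone and with a class per cell, and 3 with the *Retnla* and *Lyz1* cluster as macrophages. Macrophages on Day 7 over Day 3 gave 1 higher with the mean CPM of single cells, and 5 higher and 0 lower with each library clustered alone. Dendritic cells on Day 7 over Day 3 gave 1 higher with median-of-ratios scaling and with cDC2 alone. Depth limits *Ciita*, with 9 to 621 UMIs in a group of dendritic cells, and *H2-DMb1* in mature cells.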

Other observations

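Some class II UMIs were also counted in T cells and structural cells, and where these came from was not tested. The class II sum was 2997 CPM in 385 T cells on Day 7 and 6839 CPM in 314 T cells on Day 14, with *Cd74*, *H2-Aa*, *H2-Ab1* and *H2-Eb1* giving 35.5%, 25.7%, 18.5% and 20.4% of it on Day 14. Per T cell thinned to 1000 UMIs the median was 0 on both days, the 90th percentile was 3 and 2 UMIs, and the mean was 2.22 and 3.66 UMIs. The Day 14 mean thus lay above the 90th percentile. Epithelial cells had 1189 CPM on Day 14 (716 cells), endothelial cells 464 and 749.9 CPM on Days 7 and 14, and pericytes 529 and 449 CPM. These levels were at or below the 1229 CPM of neutrophils on Day 7, which for the Day 14 values is another library.

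In dendritic cells, 4 of 14 other genes of loading and proteolysis were at least 2-fold lower on Day 14 than on Day 7, among them *Lgmn* (−1.51 on the log2 scale) and *Ap1b1* (−1.20), where 6.70% of all genes tested were lower. None of the 14 was at least 2-fold higher, where 3.04% of all genes were. In mature dendritic cells *Irf8* was above its cDC2 level on each day, at 2.82, 2.52 and 3.85, and *Ifngr1*, a chain of the interferon gamma receptor, was below it, at −2.20, −1.95 and −3.14.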
